A study of Saccharomyces cerevisiae with 7 samples.

Results

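The mRNAs of 35 nuclear genes of the mitochondrial respiratory chain and ATP synthase were followed through meiosis of budding yeast, out of 6141 open reading frames in the deposited table. The genes were taken by their systematic names. They comprise 4 genes of complex II (succinate dehydrogenase), 9 of complex III (the cytochrome bc1 complex), 2 cytochrome c isoform genes, 9 of complex IV (cytochrome c oxidase) and 11 of complex V (ATP synthase). The samples came from a Clb5Delta-Clb6Delta mutant, which lacks the B-type cyclins Clb5 and Clb6 that drive premeiotic DNA replication. The course had 7 libraries, 1 each at 1, 2, 3, 4, 5 and 6 h and 1 titled 8 h, each set against 0 h of the same mutant. The source name of the one titled 8 h gives 6 h, and it is called the last library here. No wild-type course was analysed here, and the sources used here do not name strain background or medium.

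In yeast, complexes II and III pass electrons from succinate to cytochrome c, complex IV passes them to oxygen, and complex V uses the resulting proton gradient to make ATP. Budding yeast has no proton-pumping complex I. Most nuclear respiratory genes are activated by the Hap2, Hap3, Hap4 and Hap5 complex when cells use respiratory carbon sources, and meiosis in yeast depends on respiration. Subunit V of complex IV and cytochrome c each have an aerobic isoform, from COX5A and CYC1, and an isoform favoured at low oxygen, from COX5B and CYC7.

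Each value is a log2 ratio to 0 h, so -1 means that the mRNA was 2-fold lower than at 0 h. The ratios carry no absolute level, and levels of different genes cannot be compared. With 1 library per time point no difference between 2 times has a replicate check. The same 0 h array stands under every ratio, and an error in a gene's 0 h value would shift its whole course. The test used was a line over time fitted with limma, and "rose" or "fell" below means that its Benjamini-Hochberg adjusted p was under 0.05. "Changed" means the same for a spline. These p-values measure how single samples taken in turn from 1 course scatter about the line, and neighbouring samples are not independent. The line leaves 5 residual degrees of freedom per gene. For the p-value and the SE, limma also draws each gene's variance towards that of all rows. In whole cultures, fewer cells of a type and less RNA per cell cannot be told apart.

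Between 5625 and 5810 open reading frames had a value in a library. All 10 meiotic markers were on the array, and the median of their ratios (1.27 in the 1 h library) reached 4.51 at 6 h and stood at 3.52 in the last library. That median pools markers of unlike courses. DMC1, for example, was 5.14 at 4 h and 1.81 in the last library, where SPS2 was 6.59 and 10.55. The rows of the deleted genes had values, between -0.51 and 1.40 for CLB5 and between -0.53 and 1.27 for CLB6. A ratio to 0 h of the same mutant shows no level, so the deletions could not be checked. The SD of all log2 ratios was 0.96 at 1 h and 1.65 in the last library, and a wider library enlarges every ratio in it.

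Most respiratory mRNAs were below their 0 h level from the first hour and, in the values as deposited, went lower with time. The median log2 ratio of the members was -1.01, -0.997, -1.03, -1.30, -1.43 and -1.89 at 1, 2, 3, 4, 5 and 6 h and -2.10 in the last library, while the median of all rows stayed between -0.01 and 0.09. The members' median lay at the 11.99th percentile of all rows at 1 h and at the 5.64th in the last library. At least 2-fold lower than at 0 h were 18, 17, 19, 24, 27 and 30 of 35 members at 1, 2, 3, 4, 5 and 6 h, and 27 of 34 in the last library. Of all rows, 12.1%, 12.3%, 13%, 15.7%, 18.2%, 19.3% and 20.5% were that low in the same 7 libraries.

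A value in every library was present for 34 members, and COX5A had none in the last library. Of these 34, 12 were at least 2-fold lower in all 7 libraries, against 6.17% of all rows, and 29 were below 0 in all 7, against 24.2%. The line fell for 19 of the 34, against 15.1% of all rows tested, and rose for COX5B alone, against 18% of all rows. By the spline 24 changed, against 61% of all rows, a share not far from theirs. The median slope was -0.15 log2 units per hour for the members and -0.01 for all rows.

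How far the members' median declined after 1 h, and how many members were called, depended on the spread of the libraries. With all libraries brought to the same median absolute deviation, 4 of 34 members fell (SDH3, QCR8, CYC7 and ATP4), against 11.3% of all rows. The share of members that fell was then near that of all rows. There 2 rose (QCR9 and ATP14), against 16.8%. Slopes below 0 numbered 20 of 34 members and 2470 of 5349 rows, with median slopes of -0.026 and 0.013. At that spread the members' median was -1.39 at 1 h, -1.26, -1.17, -1.31, -1.31 and -1.63 at 2 to 6 h, and -1.61 in the last library. It was thus lower at 6 h and in the last library than at 1 h, but higher from 2 to 5 h. The rescaling subtracts a library median near 0 and divides by a positive factor. It could therefore not remove the low position against 0 h, while most slopes were not called at the same spread. Whether the widening is technical was not tested. After quantile normalization 10 members fell and ATP14 rose, and the share of all rows was not counted under that setting. The members' median was then -1.22, -1.19, -1.19, -1.31, -1.28 and -1.68 from 1 to 6 h and -1.84 in the last library. With the last library taken as 6 h, SDH1, QCR6, QCR8, RIP1, CYC7, COX5B, ATP1 and ATP5 missed the threshold (limma adjusted p between 0.0529 and 0.0844) and COX12 fell (0.03).

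**Figure D1:**
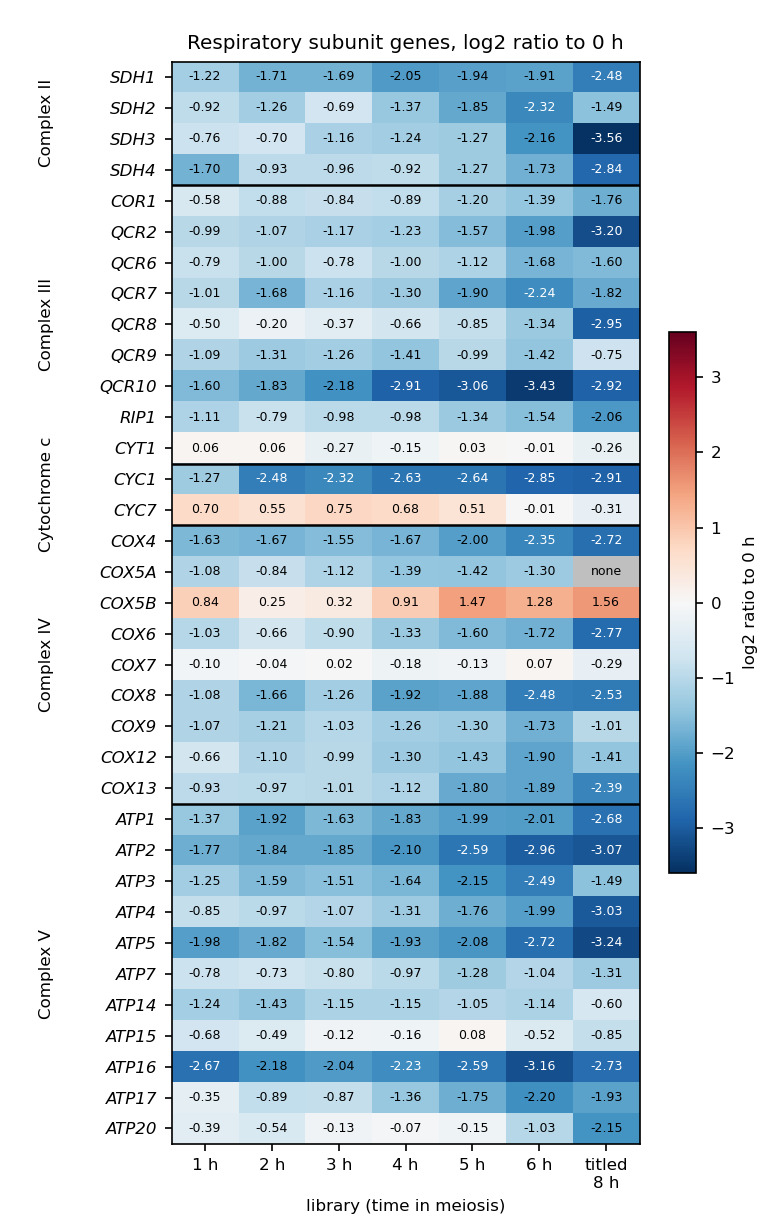
Log2 ratio to 0 h of the 35 members (vertical axis, grouped by complex) in the 7 libraries (horizontal axis, in order of time), with colour giving the ratio and a grey cell for the missing COX5A value. Most members are below 0 throughout, and COX5B and CYC7 are the members above 0 in most libraries.

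Complex II oxidises succinate to fumarate and is also an enzyme of the citric acid cycle. All 4 of its mRNAs were below 0 h in every library, against 24.2% of all rows, and 2 of 4 fell, against 15.1%. SDH1 (YKL148C), the flavoprotein subunit, had log2 ratios of -1.22, -1.71, -1.69, -2.05, -1.94, -1.91 and -2.48 in the 7 libraries in order of time. It was more than 2-fold lower from 1 h on, and its slope was -0.15 ± 0.04 per hour (SE, limma adjusted p = 0.0232). SDH3 (YKL141W), a membrane anchor, had -0.76, -0.70, -1.16, -1.24, -1.27, -2.16 and -3.56. It stayed near its 1 h value until 2 h, was lowest in the last library and had a slope of -0.39 ± 0.06 (limma adjusted p = 0.00242), which was -0.25 without that library. SDH4 (YDR178W), the other anchor, had -1.70, -0.93, -0.96, -0.92, -1.27, -1.73 and -2.84, so that it was low at 1 h, higher from 2 to 5 h and lowest at the end. Its spline changed (limma adjusted p = 0.000571) and its line did not pass (0.0956). SDH2 (YLL041C), the iron-sulfur subunit, ranged from -2.32 at 6 h to -0.69 at 3 h with no call (limma adjusted p = 0.131). The SDH1 call was lost without the 1 h, 3 h or last library (limma adjusted p = 0.0667, 0.0516 and 0.103). The line of SDH2 passed without the last library (slope -0.27, limma adjusted p = 0.0275), and that of SDH4 without 1 h (-0.32, limma adjusted p = 0.00453), while without the last library the SDH4 slope was -0.03 (limma adjusted p = 0.81).

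Complex III passes electrons from ubiquinol to cytochrome c. Of its 9 mRNAs 6 fell, against 15.1% of all rows, and CYT1 stood apart from the others. The core subunit genes COR1 (YBL045C) and QCR2 (YPR191W) both fell. QCR2 had -0.99, -1.07, -1.17, -1.23, -1.57, -1.98 and -3.20, lower in each library than in the one before, with a slope of -0.30 ± 0.05 (limma adjusted p = 0.00353) and of -0.19 without the last library. COR1 ranged from -0.58 at 1 h to -1.76 in the last library (slope -0.16 ± 0.04, limma adjusted p = 0.00978). Of the redox subunits, RIP1 (YEL024W), the Rieske iron-sulfur protein, had -1.11, -0.79, -0.98, -0.98, -1.34, -1.54 and -2.06 and fell (slope -0.16 ± 0.04, limma adjusted p = 0.0233). CYT1 (YOR065W), which encodes cytochrome c1, had 0.06, 0.06, -0.27, -0.15, 0.03, -0.01 and -0.26. It was within 0.27 of its 0 h value in every library, with no call (slope -0.03 ± 0.04, limma adjusted p = 0.596).

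The small subunits of complex III differed among themselves. QCR8 (YJL166W) had -0.50, -0.20, -0.37, -0.66, -0.85, -1.34 and -2.95, so that it was 2-fold lower only at 6 h and in the last library (slope -0.35 ± 0.07, limma adjusted p = 0.00587, and -0.18 without the last library). QCR10 (YHR001W-A) had -1.60, -1.83, -2.18, -2.91, -3.06, -3.43 and -2.92 and was the lowest member at 6 h (slope -0.24 ± 0.06, limma adjusted p = 0.0173, and -0.39 without the last library). QCR9 (YGR183C) had -1.09, -1.31, -1.26, -1.41, -0.99, -1.42 and -0.75, with no call (slope 0.04 ± 0.05, limma adjusted p = 0.493). QCR9 was thus low from 1 h and closest to its 0 h level at the end, where QCR8 was lowest. QCR6 (YFR033C) ranged from -0.78 to -1.68 and fell (limma adjusted p = 0.0382), and QCR7 (YDR529C) ranged from -1.01 to -2.24 with no call (limma adjusted p = 0.103). The QCR6 call was lost without any single library but that of 1 h (limma adjusted p between 0.0528 and 0.0862). The QCR10 call was lost without 1 h or 2 h (0.0539 and 0.0588), and the RIP1 call without 2 h, 3 h, 6 h or the last library (limma adjusted p = 0.0712, 0.0523, 0.0517 and 0.169).

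Cytochrome c carries electrons from complex III to complex IV. Its aerobic isoform gene CYC1 (YJR048W) had -1.27, -2.48, -2.32, -2.63, -2.64, -2.85 and -2.91. Most of the difference was reached by 2 h, and the line fell (slope -0.18 ± 0.06, limma adjusted p = 0.0359, and -0.09 without the 1 h library). The other isoform gene, CYC7 (YEL039C), had 0.70, 0.55, 0.75, 0.68, 0.51, -0.01 and -0.31. It was above 0 h through 5 h and near or below it after, and its line also fell (slope -0.15 ± 0.04, limma adjusted p = 0.0307). The CYC1 call was lost without 1 h, 3 h, 5 h or 6 h (limma adjusted p = 0.112, 0.0609, 0.0575 and 0.0799), and the CYC7 call without 2 h, 3 h, 6 h or the last library (limma adjusted p = 0.0514, 0.068, 0.075 and 0.186).

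Complex IV reduces oxygen to water around a core encoded in mitochondrial DNA, and the 9 genes here encode its nuclear subunits. The mitochondrial genes of the complexes were not analysed here. Of the 8 tested, 4 fell and 1 rose, against 15.1% and 18% of all rows. COX13 (YGL191W), subunit VIa, had -0.93, -0.97, -1.01, -1.12, -1.80, -1.89 and -2.39, with its widest step between 4 and 5 h (slope -0.23 ± 0.04, limma adjusted p = 0.00387). COX6 (YHR051W), subunit VI, had -1.03, -0.66, -0.90, -1.33, -1.60, -1.72 and -2.77 (slope -0.27 ± 0.05, limma adjusted p = 0.00416). COX4 (YGL187C), subunit IV, stayed between -1.55 and -1.67 through 4 h and was -2.72 in the last library (slope -0.17 ± 0.04, limma adjusted p = 0.0151). COX8 (YLR395C), subunit VIII, ranged from -1.08 at 1 h to -2.53 in the last library and fell (slope -0.21 ± 0.05, limma adjusted p = 0.0084).

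COX5B (YIL111W), subunit Vb, had 0.84, 0.25, 0.32, 0.91, 1.47, 1.28 and 1.56. It was above 0 h in all 7 libraries, least so at 2 and 3 h, and was the member that rose (slope 0.17 ± 0.06, limma adjusted p = 0.0433). COX5A (YNL052W), subunit Va, had -1.08, -0.84, -1.12, -1.39, -1.42 and -1.30 from 1 to 6 h. Fitted over rows with at least 5 values, 5792 in all, its slope was -0.09 ± 0.06 with no call (limma adjusted p = 0.270). COX7 (YMR256C), subunit VII, had -0.10, -0.04, 0.02, -0.18, -0.13, 0.07 and -0.29, close to 0 h throughout, with no call (limma adjusted p = 0.707). COX9 (YDL067C), subunit VIIa, was at least 2-fold lower in every library, between -1.01 and -1.73, with no call (limma adjusted p = 0.702). COX12 (YLR038C), subunit VIb, ranged from -0.66 at 1 h to -1.90 at 6 h, and its spline changed (limma adjusted p = 0.0272). The COX5B call was lost without any single library but that of 1 h (limma adjusted p between 0.0617 and 0.127). It was also lost at the same spread and after quantile normalization (limma adjusted p = 0.174 and 0.282), and was kept under 5 of 14 alternatives. The COX4 call was lost without the last library (limma adjusted p = 0.0963). Without that library the line of COX12 passed (slope -0.21, limma adjusted p = 0.0136).

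Complex V consists of the F1 part, which holds the catalytic sites, and the membrane-bound Fo part with the peripheral stalk. Of the 11 mRNAs 5 fell, against 15.1% of all rows. In F1, the catalytic beta subunit gene ATP2 (YJR121W) had -1.77, -1.84, -1.85, -2.10, -2.59, -2.96 and -3.07, lower in each library than in the one before (slope -0.22 ± 0.04, limma adjusted p = 0.0041). The alpha subunit gene ATP1 (YBL099W) had -1.37, -1.92, -1.63, -1.83, -1.99, -2.01 and -2.68 (slope -0.15 ± 0.04, limma adjusted p = 0.0239). The central stalk genes had no call by the line. ATP3 (YBR039W), the gamma subunit, had -1.25, -1.59, -1.51, -1.64, -2.15, -2.49 and -1.49, lowest at 6 h, with no call (limma adjusted p = 0.334). ATP16 (YDL004W), the delta subunit, was the lowest member at 1 h, at -2.67, and lay between -2.04 and -3.16 throughout with no call (limma adjusted p = 0.29). ATP15 (YPL271W), the epsilon subunit, had -0.68, -0.49, -0.12, -0.16, 0.08, -0.52 and -0.85. It was nearest to 0 h from 3 to 5 h and lower on both sides of that span, and its spline changed (limma adjusted p = 0.0251).

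In the stalk and Fo part, ATP4 (YPL078C), subunit b of the peripheral stalk, had -0.85, -0.97, -1.07, -1.31, -1.76, -1.99 and -3.03. It was lower in each library than in the one before and had the lowest adjusted p of the members (slope -0.31 ± 0.04, limma adjusted p = 0.00124). ATP17 (YDR377W), subunit f, had -0.35, -0.89, -0.87, -1.36, -1.75, -2.20 and -1.93 (slope -0.25 ± 0.05, limma adjusted p = 0.00526). ATP5 (YDR298C), the oligomycin sensitivity subunit that joins the stalk to F1, ranged from -1.54 at 3 h to -3.24 in the last library and fell (limma adjusted p = 0.02). ATP20 (YPR020W), subunit g, which takes part in dimers of the enzyme, had -0.39, -0.54, -0.13, -0.07, -0.15, -1.03 and -2.15. It was near 0 h at 3 to 5 h and lowest at the end, and its spline changed (limma adjusted p = 0.000574) while its line did not pass (0.0566). ATP7 (YKL016C), subunit d, ranged from -0.73 to -1.31 with no call (limma adjusted p = 0.103). ATP14 (YLR295C), subunit h, had -1.24, -1.43, -1.15, -1.15, -1.05, -1.14 and -0.60, with a slope above 0 and no call (0.09 ± 0.04, limma adjusted p = 0.108).

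Single libraries decided several complex V calls. ATP1 was lost without 1 h, 3 h or the last library (limma adjusted p = 0.0553, 0.0555 and 0.165), and ATP5 without 2 h, 6 h or the last library (limma adjusted p = 0.0503, 0.0538 and 0.171). Without the last library the line of ATP3 passed (slope -0.23, limma adjusted p = 0.0136). The line of ATP20 passed without 1 h or 5 h (limma adjusted p = 0.0294 and 0.0378), while without the last library its slope was -0.06 (limma adjusted p = 0.622). SDH3 and ATP4 were the members whose call held under all 14 alternatives tried.

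The median slope was -0.17 for complex II, -0.16 for complex III, -0.17 for cytochrome c, -0.15 for complex IV and -0.15 for complex V. At the same spread it was -0.032, -0.037, -0.075, -0.012 and 0.0024 in the same order, so that the sign of complex V depended on the scaling. Within complexes the slopes ranged from -0.39 to -0.15 in complex II, from -0.35 to 0.04 in complex III, from -0.27 to 0.17 in complex IV and from -0.31 to 0.09 in complex V. At 1 h the median ratios of complexes II, III, IV and V were -1.07, -0.99, -1.03 and -1.24, and in the last library they were -2.66, -1.82, -1.90 and -2.15. Members are not replicates of a complex, and no test of a difference between complexes was made.

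**Figure D2:**
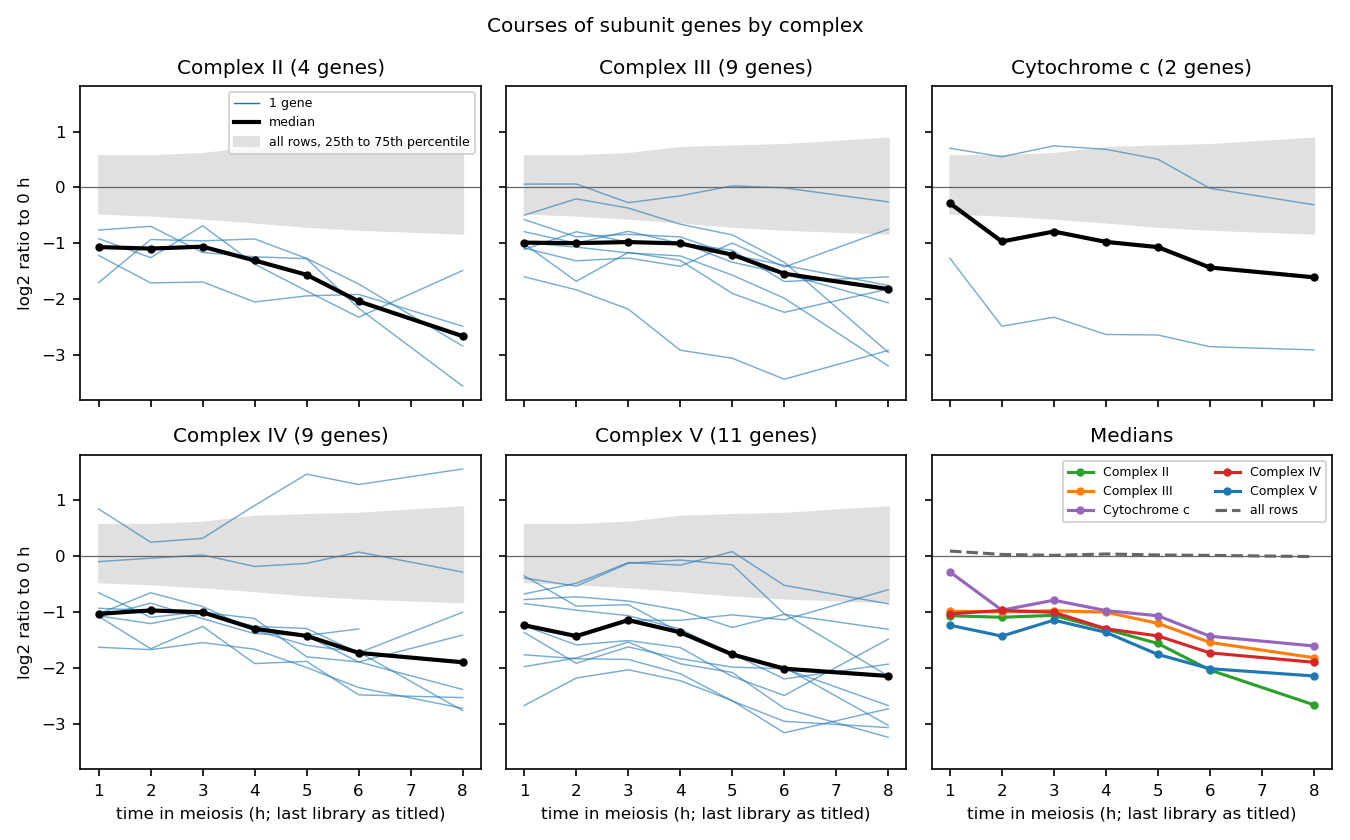
Log2 ratio to 0 h (vertical axis) against time in hours (horizontal axis) for the members of each complex, with thin lines for single genes, a thick line for the complex median, a grey band for the middle of all rows (25th to 75th percentile) and all medians together in the last panel. The medians of complexes II, III, IV and V lie between -0.97 and -1.43 in the first 3 libraries and between -1.82 and -2.66 in the last library.

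Genes at least 2-fold lower in all 7 libraries numbered 1 in complex II, 2 in complex III, 1 of the cytochrome c genes, 3 in complex IV and 5 in complex V. The share of all rows was 6.17%. In complex V, 4 of these 5 encode F1 subunits, and the median slope was -0.08 for F1 and -0.21 for the stalk and Fo part. That gap rested on the last library, without which both medians were -0.11, and at the same spread they were 0.037 and -0.068. The mean Pearson correlation over the 7 libraries, given as a description since all pairs share libraries and the 0 h array, was 0.55 within complex II, 0.419 within complex III, 0.228 within complex IV and 0.376 within complex V. Between complexes it was 0.547 for II and III, 0.517 for II and V, 0.451 for II and IV, 0.429 for III and V, 0.384 for III and IV and 0.362 for IV and V. Over all 561 pairs of members it was 0.428, and over all rows 0.00182. The libraries were taken as deposited, and their widening with time can by itself make genes that lie below 0 correlate. No correlation at the same spread was made. ATP2, COR1 and QCR6 had the highest mean correlation with the other members (0.643, 0.639 and 0.638), and COX5B, ATP14 and QCR9 the lowest (-0.571, -0.54 and -0.275).

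**Figure D3:**
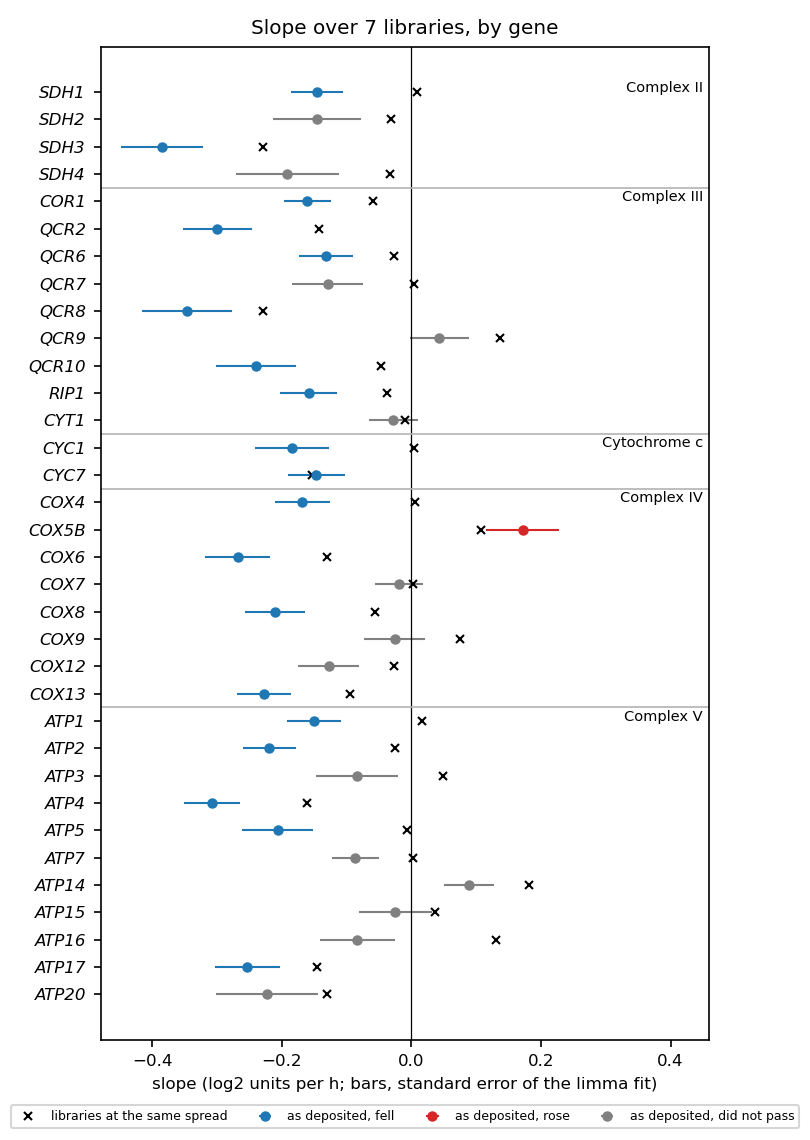
Slope in log2 units per hour (horizontal axis) with its SE for the 34 tested members (vertical axis, grouped by complex), with colours for the limma call and crosses for the slope with libraries at the same spread. COX5B is the called slope above 0 at 0.17, and SDH3 has the lowest at -0.39, with libraries as deposited.

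From each library to the next, the number of members that were lower in the later one was 23 of 35 between 1 and 2 h, 13 of 35 between 2 and 3 h, 31 of 35 between 3 and 4 h, 27 of 35 between 4 and 5 h and 31 of 35 between 5 and 6 h. Of all rows, 54.9%, 48.1%, 46.8%, 54.1% and 50.7% were lower over the same steps. The members' median step was -0.19 between 3 and 4 h and -0.36 between 5 and 6 h, and at the same spread it was -0.0046 and -0.20. Between 6 h and the last library, 22 of 34 were lower, against 48.2% of all rows, and single members parted: QCR8 differed by -1.61, SDH3 by -1.39 and QCR2 by -1.21, while ATP3 differed by 1.01, COX9 by 0.73 and QCR9 by 0.68. The SD of the members' steps was 0.68 there and 0.27 between 5 and 6 h, and that of all rows was also 0.68 there and 0.41 between 5 and 6 h. Set against the 1 h library in place of 0 h, 11 of 35 members were at least 2-fold lower at 6 h, against 13.3% of all rows, and 19 of 34 were in the last library, against 17.1% of all rows. These last values do not use the 0 h array, but they set the narrowest library against wider ones. The SD of all rows was 0.96 at 1 h and 1.65 in the last library. The members' median in these 2 libraries was -1.01 and -2.10 as deposited, and -1.39 and -1.61 at the same spread.

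The isoform pairs shifted towards the low-oxygen member. The difference COX5B minus COX5A, which is the log2 change of their ratio since 0 h, was 1.93, 1.09, 1.44, 2.30, 2.89 and 2.59 from 1 to 6 h. The ratio of the COX5B to the COX5A mRNA was thus 2.13- to 7.41-fold its 0 h value in all 6 libraries that measured both. The difference CYC7 minus CYC1 was 1.97, 3.03, 3.07, 3.32, 3.15, 2.84 and 2.60, or 3.92- to 9.95-fold. Both differences rest on 0 h as the baseline. Set against the 1 h library, CYC7 minus CYC1 was still above 0 in each later library, between 0.63 and 1.35, while COX5B minus COX5A was -0.84 and -0.49 at 2 and 3 h and 0.37, 0.96 and 0.66 at 4, 5 and 6 h.

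Neither difference had a slope that passed an exact permutation test over the orders of the time points (two-sided). The slope was 0.27 per hour for COX5B minus COX5A (exact p = 0.1, and 0.2 after Benjamini-Hochberg adjustment over the 2 pairs, with 0.00278 as the smallest p that its 6 time points allow). It was 0.04 for CYC7 minus CYC1 (exact p = 0.669, adjusted 0.669, with 0.000198 as the smallest that 7 time points allow). Whether the probes tell the isoform mRNAs apart could not be checked.

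**Figure D4:**
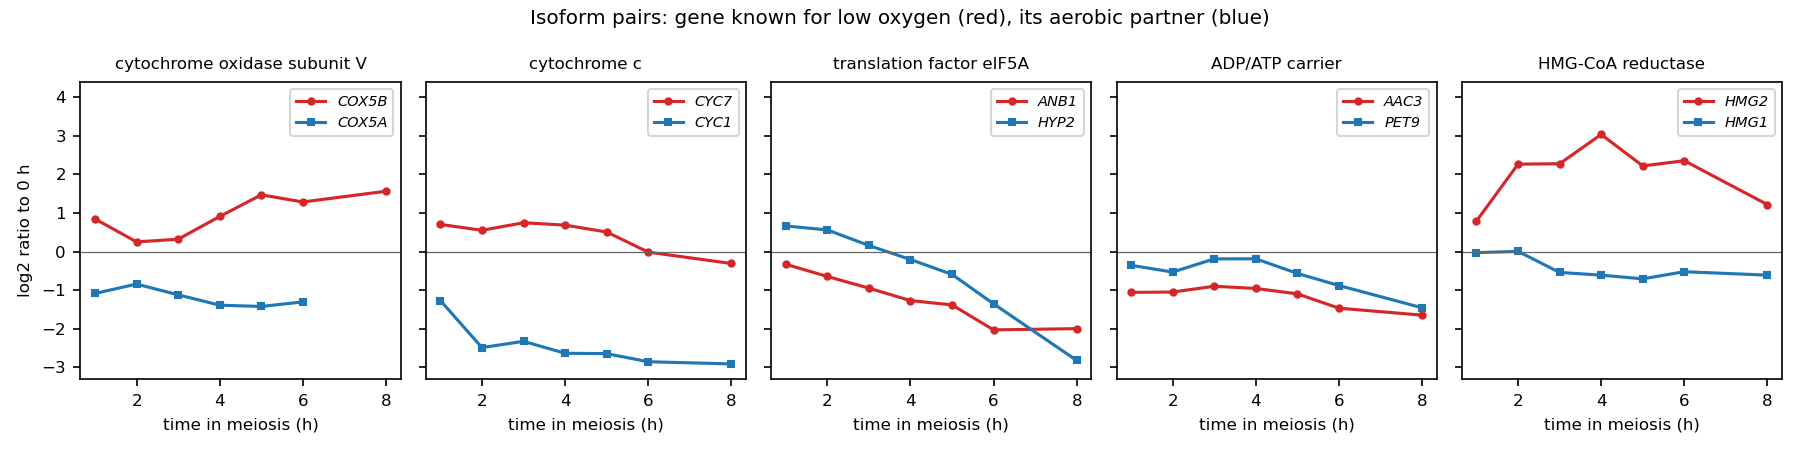
Log2 ratio to 0 h (vertical axis) against time in hours (horizontal axis) for 5 pairs of a gene favoured at low oxygen and its aerobic counterpart. COX5B and CYC7 lie above COX5A and CYC1 in every library with both values, and ANB1 and AAC3 lie below HYP2 and PET9 in all libraries but the last for ANB1.

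Other pairs of this kind did not all shift the same way against 0 h. ANB1, a hypoxic gene of translation factor eIF5A, had -0.33, -0.64, -0.95, -1.27, -1.38, -2.03 and -1.99 and fell (slope -0.26 ± 0.04, limma adjusted p = 0.0021). Its aerobic counterpart HYP2 also fell (slope -0.50 ± 0.05, limma adjusted p = 0.000513). ANB1 minus HYP2 was between -1.20 and -0.67 through 6 h and 0.82 in the last library. Set against the 1 h library, it was -0.21, -0.11 and -0.07 at 2, 3 and 4 h, 0.20 and 0.32 at 5 and 6 h and 1.82 in the last library. AAC3 minus PET9, the hypoxic and the main ADP/ATP carrier, was below 0 in all 7 libraries, between -0.77 and -0.19. Against the 1 h library it was between -0.07 and 0.18 from 2 to 6 h and 0.51 in the last library. HMG2 minus HMG1, which encode HMG-CoA reductases of sterol synthesis, was above 0 in all 7, between 0.82 and 3.64, and between 1.01 and 2.82 against the 1 h library. The flanking genes differed from the isoform genes in part. Beside COX5B, HOS4 also rose (slope 0.39 ± 0.07, limma adjusted p = 0.00361), and HPM1 was between -0.76 and -0.42 from 1 to 6 h. Beside CYC7, UTR2 and UTR4 fell (limma adjusted p = 0.000719 and 0.0149). Beside CYC1, ANB1 fell and UTR1 had no call (limma adjusted p = 0.828), and beside COX5A, MSG5 rose (0.00694) and COG5 had no call (limma adjusted p = 0.188).

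The 9 lists of other respiratory genes cover regulation, assembly and supply of the complexes, with some paralogs, inhibitors and further subunits. Of their 101 genes, 95 were on the array and 87 were tested. Of these 87, 13 rose and 10 fell, against 18% and 15.1% of all rows. Both shares are near those of all rows. At the same spread 16 rose and 6 fell, against 16.8% and 11.3% of all rows. Without the last library 8 rose and 9 fell, and the share of all rows was not counted there. The median slope of the list genes was -0.00, and their median ratio was between -0.54 and -0.48 in every library. HAP4, the activating subunit whose supply limits the Hap complex, had -0.49, -0.49, -0.18, 0.41, 1.06, 1.99 and 1.72. It was below 0 h through 3 h and above it from 4 h, and it rose (slope 0.40 ± 0.06, limma adjusted p = 0.0017). HAP3, a DNA-binding subunit, had -1.09, -0.63, -0.29, -0.31, -0.17, 0.10 and 0.65 and rose (slope 0.22 ± 0.04, limma adjusted p = 0.00285). With libraries as deposited, HAP4 and HAP3 were thus called in the direction opposite to that of 19 of the 34 structural genes. At the same spread 4 of the 34 fell, while the calls of HAP4 and HAP3 held under all 14 alternatives.

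**Figure D5:**
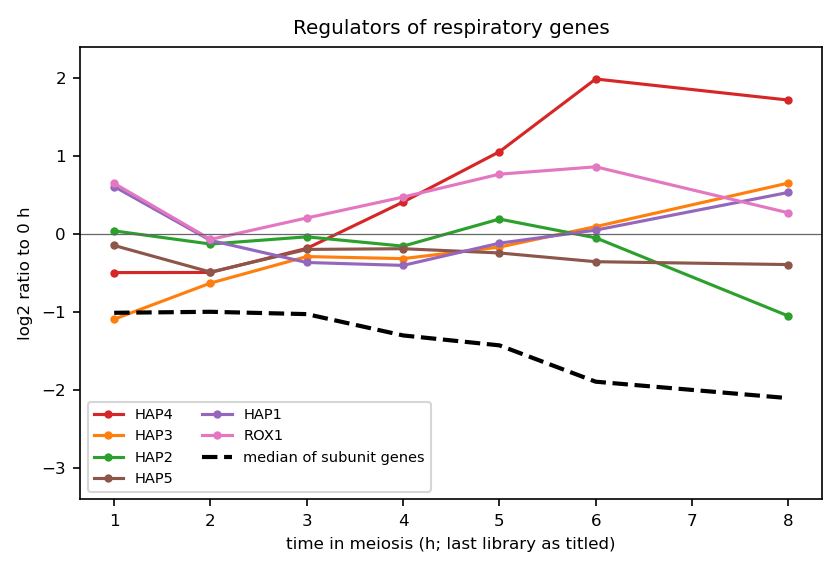
Log2 ratio to 0 h (vertical axis) against time in hours (horizontal axis) for the regulators HAP1 to HAP5 and ROX1 beside the median of the 35 members. HAP4 reaches 1.99 at 6 h, where the median of the members is -1.89.

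HAP5 had no call (limma adjusted p = 0.738) and stayed between -0.49 and -0.15. HAP2 had no call by the line (limma adjusted p = 0.161) and was -1.05 in the last library. HAP1, a heme-responsive activator, had 0.61 at 1 h, -0.40 at 4 h and then 0.53 in the last library, and its spline changed (limma adjusted p = 0.0127). ROX1, the repressor of hypoxic genes, lay between -0.07 and 0.86 with no call (limma adjusted p = 0.687).

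The assembly lists also held COX mRNA translation genes, ATP synthase inhibitors and further subunits, and complex II paralogs. Of 21 genes tested in the complex IV list 1 rose and 1 fell, and of 10 for complex III and cytochrome c 3 rose and 1 fell. Of 13 in the ATP synthase list 2 rose and 1 fell, and of 7 in the complex II list 2 rose and 0 fell. Of all rows 18% rose and 15.1% fell. SCO1, which delivers copper to complex IV, rose (slope 0.28 ± 0.06, limma adjusted p = 0.00739), and SHY1, another complex IV assembly factor, fell (-0.23 ± 0.04, limma adjusted p = 0.00362). CYC3, the lyase that attaches heme to cytochrome c, rose (0.20 ± 0.05, limma adjusted p = 0.0132), and CBP4, an assembly factor of complex III, fell (-0.38 ± 0.05, limma adjusted p = 0.000893). ATP11, a chaperone of F1, rose (limma adjusted p = 0.0139), NCA2 fell (0.00756), and SHH3, a paralog of SDH3, rose (limma adjusted p = 0.019). Without the last library, SCO1, CYC3 and SHH3 missed the threshold (limma adjusted p = 0.0664, 0.0961 and 0.0747), as did SHH3 without 1 h (0.0569). The SCO1 slope was then 0.15, and its call was also lost with the last library taken as 6 h (limma adjusted p = 0.0579). SHH3 missed the threshold at the same spread and after quantile normalization (limma adjusted p = 0.0707 and 0.0802).

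In the supply of electrons, cofactors and substrates, 2 of 5 tested dehydrogenases that reduce ubiquinone fell and none rose. Beside this and the counts below, 15.1% of all rows fell and 18% rose. NDE2, an external NADH dehydrogenase, had 1.30 at 1 h and -0.79 in the last library and fell (slope -0.32 ± 0.04, limma adjusted p = 0.000892). Of 11 ubiquinone synthesis genes 2 rose and 3 fell, with COQ11 at 2.41 and COQ7 at -4.03 in the last library (limma adjusted p = 0.00124 and 0.0169). The COQ7 call was lost without that library (slope -0.11 in place of -0.36, limma adjusted p = 0.149), with it taken as 6 h, at the same spread and after quantile normalization (limma adjusted p = 0.116, 0.125 and 0.0659). Of 7 tested heme synthesis genes, HEM4 rose and HEM1, which encodes the first enzyme of the pathway, fell (limma adjusted p = 0.00172 and 0.00181), and HEM1 missed the threshold at the same spread (slope -0.087, limma adjusted p = 0.0834). Of 5 carriers of ADP/ATP and phosphate, PET9 fell (limma adjusted p = 0.0464), a call lost without 2 h, 3 h, 5 h, 6 h or the last library (limma adjusted p between 0.0602 and 0.361), with slopes of -0.15 over all 7 libraries and -0.08 without the last.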

How the data were processed

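The deposited table holds log2 ratios for 7 arrays with 2 channels, 1 array per time point. Per the labels, sample cDNA carried Cy5 and a pool of mRNA from the course carried Cy3, and the authors divided each sample-to-pool ratio by that of 0 h before taking log2. The sources used here do not state the scanner, background correction, spot filter or array normalization, so the signal behind a ratio is unknown.

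Members and lists were chosen with earlier results of these data known. All 35 systematic names were found among 6141 rows, and their symbols come from the RefSeq gene table of assembly R64. In R 4.3.3, the functions lmFit and eBayes of limma 3.58.1 gave a slope per hour and, for curved courses, a natural spline (2 degrees of freedom), on the 5349 rows with a value in all 7 libraries, and p-values were adjusted by Benjamini-Hochberg over all of them at a threshold of 0.05. The fit was run on simulated straight lines with independent noise. That run cannot show how the calls behave where neighbouring samples are not independent. Each isoform pair was tested by an exact permutation of the time points. The text names every member, the regulators HAP1 to HAP5 and ROX1, the steepest called slope each way in each other list, 3 further isoform pairs and the genes that flank the 4 isoform genes. Alternatives were 3 scalings of the libraries, 6 h for the last library, robust eBayes, rows with 5 or more values, ranks of the time points and each library left out. A promoter motif count that had been planned was not made. Summaries used pandas 2.3.3, numpy 2.4.6 and scipy 1.17.1 under Python 3.11.15, and matplotlib 3.10.9 drew the figures.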

Additional observations from a re-analysis of the deposited data

How the results depend on the processing

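No paired analysis was possible because each time point has 1 library, and the replicate number only names it. Without each library in turn, 13 to 18 members fell, 0 to 1 rose and 20 to 23 changed by the spline. At the same spread 4 fell, 2 rose and 13 changed, after quantile normalization 10 fell and ATP14 alone rose, and with the last library taken as 6 h 0 rose. Of all rows, 11.3% fell and 16.8% rose at the same spread. For the other counts of these alternatives the share of all rows was not counted, so they show only how the members' calls moved. Of 476 slopes of members over the alternatives, 378 kept their direction and side of the threshold, 71 lost a call, 11 gained one, and 20 turned sign, of which 4 are also among the lost calls. The median slope at the same spread was -0.032 in complex II, -0.037 in complex III, -0.075 for cytochrome c, -0.012 in complex IV and 0.0024 in complex V. After quantile normalization it was -0.093, -0.079, -0.068 and -0.067 in complexes II, III, IV and V. Without each library it ran from -0.23 to -0.16 in complex II, -0.16 to -0.15 in III, -0.19 to -0.13 for cytochrome c, -0.16 to -0.13 in IV and -0.18 to -0.11 in V. The CYC7 minus CYC1 slope was -0.16 at the same spread, -0.039 after quantile normalization and -0.082 to 0.14 without each library. That of COX5B minus COX5A was 0.095, 0.11 and 0.21 to 0.44 under the same alternatives. With 1 h as the baseline 1 member was 2-fold lower in every library, and at 1.5-fold 25 were, with no share of all rows counted for either. Slopes that turned sign at the same spread were SDH1 0.0090, QCR7 0.0038, CYC1 0.0045, COX4 0.0048, COX7 0.0029, COX9 0.075, ATP1 0.017, ATP3 0.049, ATP7 0.0024, ATP15 0.037, ATP16 0.13, HAP5 0.020, AAC3 0.018 and HMG2 -0.084. After quantile normalization they were COX7 0.00033, COX9 0.051, ATP15 0.026, ATP16 0.019, HAP5 0.017 and HMG2 -0.15, and with the last library at 6 h ATP15 0.0023 and HAP1 -0.0095. Without each library, slopes ran from -0.025 to 0.078 for QCR9, -0.034 to 0.011 for COX7, -0.11 to 0.0063 for COX9, -0.082 to 0.069 for ATP15, -0.084 to 0.12 for HAP1, -0.13 to 0.011 for HAP2, -0.0064 to 0.11 for ROX1 and -0.17 to 0.24 for HMG2. The cause of these changes was not tested. No signal intensities were used, so the precision of a single ratio is unknown.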
